A study of Mus musculus with 6 samples.

Results

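Fc receptors and a group of leukocyte surface genes were measured in whole mouse retina with and without chronic intermittent hypoxia (CIH) after oxygen-induced retinopathy (OIR). The 9 genes are Fcgr1, Fcgr3, Fcgr2b, Fcer1g, Ptprc, Cd53, Cd84, Laptm5 and Mpeg1, taken by name from the 32285 genes of the count table, and all 9 were among the 20021 genes tested. They were selected on their CPM in OIR-CIH against OIR-Norm, with that difference already known, so their values in that comparison are given as a description and without p-values, and a pass of a threshold there is no test of them. The retinas came from wild-type C57BL/6J mice and were sampled at postnatal day (PN) 18. Pups of both groups had spent 5 days, from PN8 to PN13, in 75% O2, which removes capillaries from the central retina. The OIR-CIH group (n = 3 libraries) was then kept in a cage whose O2 swung between 20.95% and 5% in 266 cycles of 135 s over 10 h each day. The OIR-Norm group (n = 3 libraries) received the same gas flow and noise at constant O2. Every retina had therefore been through OIR, and no retina from a mouse without OIR was compared here. Each library was sequenced from polyadenylated RNA of whole retina, with no sorting of immune cells.

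An Fc receptor binds the constant part of an antibody and so couples antibody-coated material to a phagocyte. The activating receptors encoded by Fcgr1 and Fcgr3 have no signalling tail of their own and use the gamma chain encoded by Fcer1g, whose tyrosine motif is phosphorylated by Src kinases and then recruits the kinase Syk. The receptor encoded by Fcgr2b carries an inhibitory motif that recruits phosphatases and opposes that signal. Ptprc encodes CD45, the phosphatase that sets Src kinase activity on leukocytes. In the retina these genes are known mainly from microglia and other macrophages.

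Depth was similar in the groups, and genes of retinal cells were abundant in both. Total counts ran from 26289905 to 38010151 in OIR-CIH and from 27664452 to 31645321 in OIR-Norm. The Müller glia gene Rlbp1 had 519 ± 32.8 CPM (read counts relative to library size) in OIR-CIH and 409.9 ± 24.7 CPM in OIR-Norm (adjusted p of 0.14 by edgeR), and the amacrine cell gene Gad1 had 197 ± 20.5 and 174 ± 11.8 CPM, both genes of retinal cells. Of 12 retina markers, 10 were higher and 2 lower in OIR-CIH, and their median log2 fold change was 0.14. Without overlap, 2 lay above OIR-Norm, as did 9.12% of all genes tested. By edgeR, DESeq2, limma with a trend or limma-voom 0 passed (1 higher at an unadjusted p below 0.05, as for 6.30% of all genes tested). Their part in the lower share of leukocyte RNA was not tested. RNA of both Xist and Y-linked genes was counted in all 6 libraries, at uneven levels. Xist had 724 to 1092 CPM in OIR-CIH, and 298.5 (replicate 1) to 1653 CPM (replicate 2) in OIR-Norm. Y-linked genes had 57.29 to 111.3 CPM in OIR-CIH, and 69.74 (replicate 2) to 183.8 CPM (replicate 3) in OIR-Norm. The groups overlapped for both, and the part of sex in the other values was not tested. How many animals each library holds was not worked out from these levels. The paper's methods list 3 eyes per group for sequencing, while the labels number replicates only and name no eye or animal. How that stands to Xist and Y-linked RNA in every library was not worked out. The p-values measure the spread between libraries, which may be technical. No pair of replicates agreed within counting noise. Library sizes behind all CPM were adjusted with edgeR's TMM factors, and log2 fold changes are OIR-CIH over OIR-Norm from edgeR's quasi-likelihood fit to all tested genes, with the standard error (SE).

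In these retinas 8 of the 9 genes had the lower mean under CIH and 1, Fcgr1, had the higher mean. Cd84 and Mpeg1 passed the thresholds used throughout, a Benjamini-Hochberg adjusted p below 0.05 and an absolute log2 fold change above 0.5. By the same rule 0.210% of all tested genes were called lower, 0.105% higher and 0.315% in either direction. DESeq2, limma with a trend and limma-voom called the same 2 of the 9 genes, where they called 0.674%, 0.330% and 0.290% of all genes in either direction and 0.504%, 0.225% and 0.185% lower. In 5 of the 9 genes every OIR-CIH library lay below every OIR-Norm library, as was the case for 9.26% of all tested genes, and in 0 of the 9 every OIR-CIH library lay above, as for 9.12% of all tested genes. The median log2 fold change of the 9 genes was -0.48, and that of all tested genes was -0.01. When each library was left out in turn, Cd84 was past the thresholds only without OIR-Norm replicate 1, and Mpeg1 in 4 of the 6 fits, not without OIR-CIH replicate 1 or OIR-CIH replicate 2. Because the fold changes helped to choose the genes, these counts describe the set and nothing was read from them. In RNA from whole retina, fewer cells of a type and less RNA per cell cannot be told apart.

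**Figure D1:**
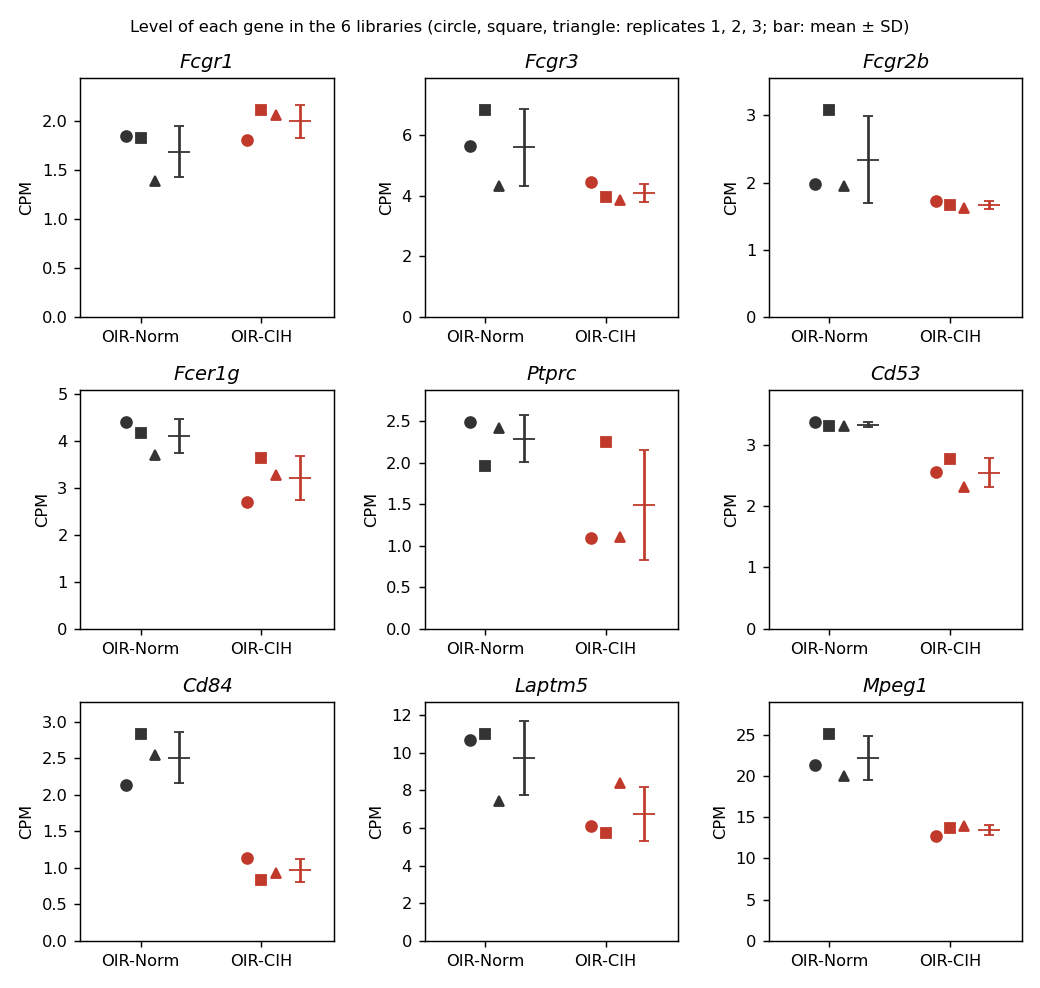
Level of each of the 9 genes in CPM (vertical axes, starting at 0) in the 3 OIR-Norm libraries (dark) and the 3 OIR-CIH libraries (red), with circles, squares and triangles for replicates 1, 2 and 3 and bars for the mean ± SD. The OIR-CIH points lie below the OIR-Norm points without overlap for Fcgr2b, Fcer1g, Cd53, Cd84 and Mpeg1, and overlap them for Fcgr1, Fcgr3, Ptprc and Laptm5.

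Among the receptors, Fcgr1, which encodes the high-affinity IgG receptor CD64, went the other way from the rest. It had 1.81, 2.12 and 2.06 CPM in OIR-CIH replicates 1 to 3 and 1.85, 1.82 and 1.38 CPM in OIR-Norm replicates 1 to 3. The groups overlapped, since OIR-CIH replicate 1 lay below OIR-Norm replicates 1 and 2, and the lowest value came from OIR-Norm replicate 3. The means were 1.99 ± 0.166 and 1.69 ± 0.263 CPM (SD, n = 3 each), a log2 fold change of 0.25 (SE 0.22), which is close to its standard error. Each library held 44 to 78 reads of the gene, and the fold change stayed between 0.12 and 0.33 when each library was left out.

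Fcgr3, the low-affinity activating receptor CD16, had 4.43, 3.95 and 3.86 CPM in OIR-CIH and 5.65, 6.84 and 4.30 CPM in OIR-Norm. OIR-Norm replicate 3 sat within the range of the OIR-CIH libraries, so the groups overlapped. The means were 4.08 ± 0.307 and 5.60 ± 1.27 CPM, 27.0% lower under CIH, with a log2 fold change of -0.46 (SE 0.18). OIR-Norm replicate 2 carried much of the distance, and without it the log2 fold change was -0.29.

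Fcgr2b, the inhibitory receptor, had 1.73, 1.66 and 1.61 CPM in OIR-CIH and 1.98, 3.09 and 1.95 CPM in OIR-Norm. All 3 OIR-CIH libraries were below all 3 OIR-Norm libraries, but the nearest libraries were 0.221 CPM apart and OIR-Norm replicate 2 stood well above the others. The means were 1.67 ± 0.0563 and 2.34 ± 0.649 CPM, a log2 fold change of -0.48 (SE 0.24). Without OIR-Norm replicate 2 it was -0.24. Over both groups the gene had 44 to 88 reads a library. The OIR-CIH coefficient of variation, 3.37%, was below the 14.0% that counting alone gives at the mean OIR-CIH count. The tight agreement of the 3 OIR-CIH values is therefore closer than the depth can resolve.

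The signalling subunit Fcer1g had 2.71, 3.64 and 3.28 CPM in OIR-CIH and 4.41, 4.17 and 3.71 CPM in OIR-Norm. The groups did not overlap, although OIR-CIH replicate 2 and OIR-Norm replicate 3 were only 0.0663 CPM apart. The means were 3.21 ± 0.471 and 4.10 ± 0.360 CPM, a log2 fold change of -0.34 (SE 0.17).

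The receptors differed in how their levels stood to one another. For each library the CPM of Fcgr1 was divided by that of Fcer1g, a ratio that is compared only between groups because transcript lengths cancel there. It was 0.667, 0.581 and 0.629 in OIR-CIH and 0.419, 0.437 and 0.373 in OIR-Norm. All OIR-CIH ratios lay above all OIR-Norm ratios, with means of 0.626 ± 0.0430 and 0.410 ± 0.0331. The ratio of Fcgr1 to Fcgr3 was likewise apart, at 0.407 to 0.535 in OIR-CIH and 0.267 to 0.328 in OIR-Norm. The activating to inhibitory ratio, Fcgr3 to Fcgr2b, averaged 2.45 ± 0.107 in OIR-CIH and 2.43 ± 0.369 in OIR-Norm, and its groups overlapped. Fcgr2b made up 21.5 ± 0.135% of the summed CPM of the 3 Fc gamma receptors in OIR-CIH and 24.2 ± 2.91% in OIR-Norm, again with overlap. Transcript lengths do not cancel in this percentage, so it is not a share of receptor transcripts. With 3 libraries against 3 an exact permutation test cannot give a p below 0.1, and these ratios use the values that chose the genes, so they carry no test.

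**Figure D2:**
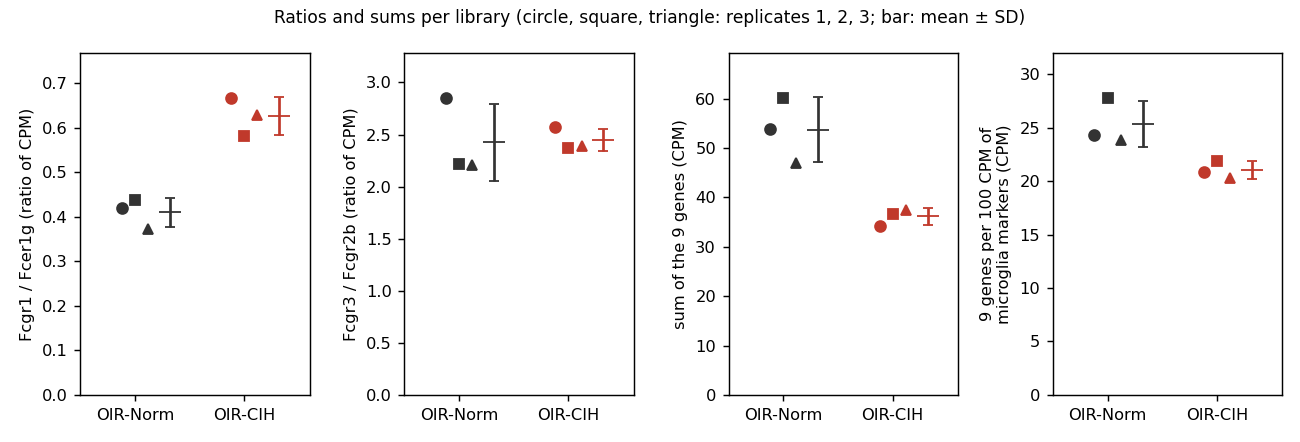
Ratios and sums per library, each panel with its own axis from 0, for OIR-Norm (dark) and OIR-CIH (red), with symbols for replicates 1 to 3 and bars for the mean ± SD. The groups are apart for Fcgr1 over Fcer1g (0.626 against 0.410), for the sum of the 9 genes and for that sum per 100 CPM of microglia markers, and overlap for Fcgr3 over Fcgr2b.

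Promoter sequence is shown for genes that differed in this pattern: Fcgr1, whose mean was higher, Fcgr3 and Cd53, which did not pass the thresholds, and Cd84 and Mpeg1, which did. Each run is the 150 bases just before a RefSeq transcription start in GRCm38.p6, 5′ to 3′ on the strand of the gene, from chr3:96293970-96294119 (minus strand), chr1:171059404-171059553 (minus), chr3:106790150-106790299 (minus), chr1:171839547-171839696 (plus) and chr19:12460620-12460769 (plus). RefSeq gives Fcgr3 a pair of close starts, both inside the gene as GENCODE draws it, and the upstream one was used. Capitals mark GAGGAA on either strand, the core letters bound by the myeloid factor PU.1.
Fcgr1: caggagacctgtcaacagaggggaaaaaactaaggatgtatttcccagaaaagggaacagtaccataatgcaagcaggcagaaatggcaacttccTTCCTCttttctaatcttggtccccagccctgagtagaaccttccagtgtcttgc
Fcgr3: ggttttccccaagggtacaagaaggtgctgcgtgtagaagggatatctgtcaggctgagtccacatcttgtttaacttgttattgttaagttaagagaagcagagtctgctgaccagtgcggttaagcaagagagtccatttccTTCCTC
Cd53: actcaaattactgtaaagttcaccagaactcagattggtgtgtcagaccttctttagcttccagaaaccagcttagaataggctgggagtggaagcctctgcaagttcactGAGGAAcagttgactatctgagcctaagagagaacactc
Cd84: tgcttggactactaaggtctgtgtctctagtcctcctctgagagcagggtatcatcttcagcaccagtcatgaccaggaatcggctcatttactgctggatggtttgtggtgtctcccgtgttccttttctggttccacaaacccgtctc
Mpeg1: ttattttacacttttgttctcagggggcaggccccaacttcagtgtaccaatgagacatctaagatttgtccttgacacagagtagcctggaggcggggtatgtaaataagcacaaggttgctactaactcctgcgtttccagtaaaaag
In windows from 250 bases before the start to 50 after it, GAGGAA on either strand occurred in 6 of the 9 genes, namely Fcgr1, Fcgr3, Ptprc, Cd53, Cd84 and Laptm5. Counted by window, it occurred in 7 of the 11 windows of the 9 genes and in 28.3% of all 32851 such windows. In Cd84 the match began at base 12 after the start and so is not in the run shown. Mpeg1 had none in its window, nor had Fcgr2b and Fcer1g, which did not pass the thresholds. Of the runs not shown, the 150 bases of Fcgr2b, Fcer1g and Ptprc held no GAGGAA and those of Laptm5 held 1. Its absence from these 150 bases was therefore not particular to the genes that passed. The longer GAGGAAGT, which contains GAGGAA, was found only in the window of Cd53 among the 9 genes and in 3.2% of all windows. TATAAA was found for Ptprc and Laptm5 and in 13.6% of all windows. A match is a description of these letters and not of binding.

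In GENCODE M21 on GRCm38, 5 of the 9 genes lie on chromosome 1. Ptprc is at chr1:138062861-138175708 on the minus strand. Fcgr2b (chr1:170958617-170976547), Fcgr3 (chr1:171051174-171064935) and Fcer1g (chr1:171229572-171234365) follow on the minus strand, and Cd84 (chr1:171839697-171890718) on the plus strand. Fcgr1 (chr3:96282909-96293969) and Cd53 (chr3:106759921-106790149) are on the minus strand of chromosome 3, Laptm5 (chr4:130913125-130936141) and Mpeg1 (chr19:12460779-12465283) on plus strands. Reads of Fcgr3 and Fcgr2b can be confused only over a short part, since 2.54% of the 100-base stretches of Fcgr3 transcripts also occur in Fcgr2b. Of the stretches of Fcgr2b transcripts, 4.30% occur in other genes, 2.17% in the neuronal gene Cplx2. Fcgr2b shares 155 exon bases with the antisense gene Gm38204, which had 2 reads in all 6 libraries together.

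On the leukocyte surface, Cd84 had the lowest fold change of the 9 genes. It encodes a receptor of the signalling lymphocytic activation molecule (SLAM) family that binds itself on neighbouring cells. Its level was 1.14, 0.832 and 0.926 CPM in OIR-CIH and 2.14, 2.84 and 2.54 CPM in OIR-Norm. The gap between the nearest libraries of the groups was wider than the range within either group. The means were 0.965 ± 0.157 and 2.51 ± 0.351 CPM, 61.5% lower under CIH, with a log2 fold change of -1.38 (SE 0.24). The gene had 24 to 81 reads a library. Its fold change stayed between -1.50 and -1.29 when each library was left out.

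Ptprc, the pan-leukocyte marker, was less clear. It had 1.10, 2.25 and 1.11 CPM in OIR-CIH and 2.50, 1.96 and 2.42 CPM in OIR-Norm. OIR-CIH replicate 2 lay within the OIR-Norm range while the other OIR-CIH libraries lay far below it. The means were 1.49 ± 0.663 and 2.29 ± 0.288 CPM, a log2 fold change of -0.64 (SE 0.28) that did not pass. The coefficient of variation in OIR-CIH was 44.6%, against 14.9% from counting alone. Without OIR-CIH replicate 2 the log2 fold change was -1.06, and it still did not pass.

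Cd53 encodes a tetraspanin found on most leukocytes. It had 2.55, 2.77 and 2.30 CPM in OIR-CIH and 3.38, 3.30 and 3.30 CPM in OIR-Norm, where the libraries lay closer together than their 9.95% counting error. The groups did not overlap. The means were 2.54 ± 0.236 and 3.32 ± 0.0447 CPM, 23.5% lower under CIH, with a log2 fold change of -0.40 (SE 0.17) that did not pass.

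The remaining members act inside the cell, at the lysosome and phagosome. Laptm5, a lysosomal membrane protein of blood-forming cells, had 6.08, 5.76 and 8.39 CPM in OIR-CIH and 10.6, 11.0 and 7.45 CPM in OIR-Norm. OIR-CIH replicate 3 was above OIR-Norm replicate 3, so the groups overlapped. The means were 6.74 ± 1.44 and 9.70 ± 1.96 CPM, a log2 fold change of -0.50 (SE 0.18) that did not pass, and without OIR-CIH replicate 3 it was -0.71.

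Mpeg1 encodes perforin-2, a pore-forming protein of macrophages. It had the highest counts of the 9 genes, 325 to 716 reads a library, and so the smallest counting error. Its level was 12.8, 13.7 and 13.9 CPM in OIR-CIH and 21.4, 25.1 and 19.9 CPM in OIR-Norm, with 6.00 CPM between the nearest libraries of the groups. The means were 13.5 ± 0.623 and 22.1 ± 2.67 CPM, 39.2% lower under CIH, with a log2 fold change of -0.71 (SE 0.11). It lay between -0.79 and -0.62 when each library was left out.

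**Figure D3:**
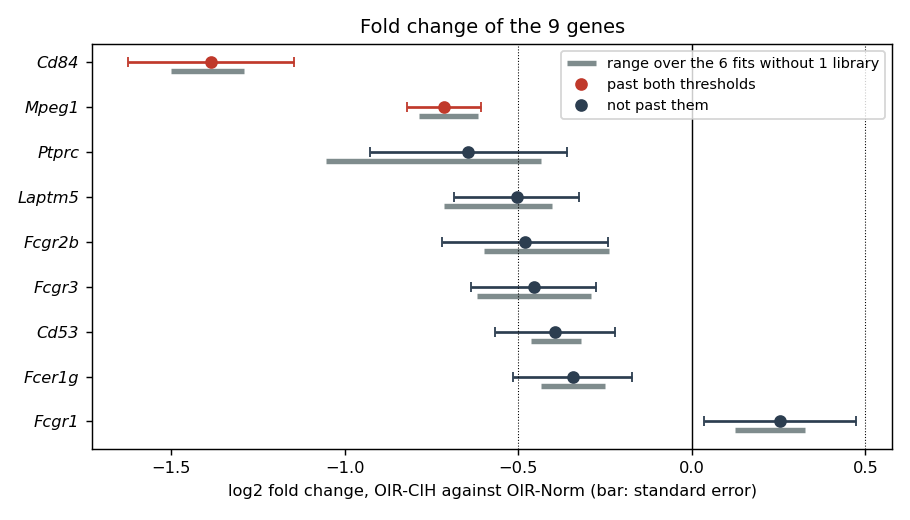
Log2 fold change of each gene, OIR-CIH over OIR-Norm (horizontal axis), with bars for the standard error of the edgeR fit and grey bars for the range over the 6 fits that leave out 1 library, dotted lines marking the fold threshold of 0.5. Cd84 (-1.38) and Mpeg1 (-0.71), in red, were past both thresholds, and every range stayed on its side of 0.

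Per kilobase of the longest coding transcript, the order of the 9 genes was compared within each group. In OIR-Norm the highest level was that of Fcer1g, 6.00 ± 0.527 CPM per kb, followed by Mpeg1 with 5.11 ± 0.617, Fcgr3 with 4.16 ± 0.942 and Laptm5 with 3.73 ± 0.755. The libraries of each of these overlapped those of the next, so neighbours in this order were not resolved, while Fcer1g lay wholly above Fcgr3 and Laptm5, and Mpeg1 wholly above Laptm5. Cd53, at 1.91 ± 0.0257 CPM per kb, stood apart from both neighbours. Cd84 (0.731 ± 0.102), Fcgr2b (0.660 ± 0.183) and Fcgr1 (0.651 ± 0.102) overlapped one another, and Ptprc was lowest at 0.452 ± 0.0568 CPM per kb, apart from Fcgr1.

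In OIR-CIH the order by this length was the same for the upper 5 genes and not for the lower 4. Fcer1g (4.70 ± 0.689 CPM per kb) was apart from Mpeg1 (3.10 ± 0.144), which overlapped Fcgr3 (3.03 ± 0.228), and Cd53 had 1.46 ± 0.135. Fcgr1 followed at 0.771 ± 0.0642 CPM per kb and was apart from Fcgr2b at 0.471 ± 0.0159. Cd84, the sixth in OIR-Norm, was last in OIR-CIH by this length, at 0.281 ± 0.0456 CPM per kb, where it overlapped Ptprc at 0.293 ± 0.131. Ptprc and Cd84 have long alternative exons, and with the length of all annotated exons 5 of the 9 genes kept their place in OIR-Norm. By that length Mpeg1 was first and Fcer1g next in OIR-Norm and the reverse in OIR-CIH. The libraries of Mpeg1 and Fcer1g overlapped in both groups, so this swap was not resolved. The lower 4 were Fcgr1, Fcgr2b, Cd84 and Ptprc in the same order in both groups. So the change in place of Cd84 holds for the coding transcript length only.

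Library by library, the 9 genes summed to 34.3, 36.6 and 37.5 CPM in OIR-CIH and to 53.9, 60.2 and 47.0 CPM in OIR-Norm. The groups did not overlap, and the sum was less even among OIR-Norm libraries (53.7 ± 6.59 CPM) than among OIR-CIH libraries (36.2 ± 1.66 CPM). OIR-Norm replicate 2 was the highest of all libraries for 5 of the 9 genes and OIR-Norm replicate 1 for 3. OIR-Norm replicate 3 was the lowest of its group for 6. Mpeg1 alone made up 37.2 ± 0.0520% of the sum in OIR-CIH and 41.3 ± 1.48% in OIR-Norm. These percentages are of CPM without correction for transcript length, so they are not shares of transcripts. Without Mpeg1 the sums were 22.7 ± 1.04 and 31.6 ± 4.09 CPM and still did not overlap.

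Markers of microglia, the resident macrophages of the retina, moved in the same direction. The 20 markers, none of which is among the 9 genes and 4 of which are in other lists given here, summed to 165, 167 and 185 CPM in OIR-CIH and to 222, 217 and 197 CPM in OIR-Norm, without overlap. Of the 20, 19 were lower and 1 was higher, the median log2 fold change was -0.30, and 0 passed the thresholds with edgeR, limma with a trend or limma-voom. At an unadjusted p below 0.05, 10 were lower, against 7.10% of all genes tested. DESeq2 called 1, Cx3cr1, the fractalkine receptor, where it called 0.504% of all genes lower. Cx3cr1 had 9.06 ± 2.26 CPM in OIR-CIH and 14.3 ± 0.907 CPM in OIR-Norm, a log2 fold change of -0.64 with an adjusted p of 0.14 by edgeR. Tmem119, also a microglia marker, had a log2 fold change of 0.09.

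Per 100 CPM of those markers, the 9 genes had 20.8, 21.9 and 20.3 CPM in OIR-CIH and 24.3, 27.8 and 23.9 CPM in OIR-Norm, again without overlap. Without Mpeg1 the values were 13.2 ± 0.522 and 14.9 ± 1.24 CPM, and the groups overlapped. The log2 fold change of each gene minus the marker median was -1.08 for Cd84 and -0.41 for Mpeg1. It was closer to 0 for Fcgr3 (-0.15), Fcgr2b (-0.18), Fcer1g (-0.04), Cd53 (-0.09) and Laptm5 (-0.20), and was -0.34 for Ptprc and 0.56 for Fcgr1. The part of the marker change in the change of the 9 genes was not tested.

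Other leukocytes were sparse by their defining markers. Of the T cell markers, Cd3e was at 0 in every library, which allows up to 0.118 CPM in the shallowest one, and Cd3d and Cd3g had 2 reads each in the 6 libraries together. The 10 T cell markers summed to 4.33 to 7.02 CPM in OIR-CIH and 4.40 to 5.29 CPM in OIR-Norm, mostly from Cd8a. The B cell marker Ms4a1 had 5 reads in all, and the 7 B cell markers summed to 5.26 to 5.62 and 4.81 to 5.39 CPM, mostly from Pax5. Natural killer cell markers were at 0 for Gzma and at 1 read for Ncr1, and their summed 9.10 to 12.6 and 9.36 to 10.3 CPM came from Eomes, which retinal neurons also use. The neutrophil marker Ly6g was at 0, S100a8 had 16 reads, and the 10 markers summed to 1.49 to 1.85 CPM in OIR-CIH and 1.92 to 3.12 CPM in OIR-Norm without overlap, mostly from Csf3r (1.19 ± 0.0448 and 1.85 ± 0.268 CPM). The mast cell marker Cma1 was at 0, and the sums of the 5 markers, 1.61 to 2.43 and 1.85 to 3.20 CPM, came mainly from Hdc. Such limits cover counting error alone.

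Monocyte and border macrophage markers had a lower summed level in OIR-CIH. Their 10 genes summed to 13.2 to 17.3 CPM in OIR-CIH and to 18.7 to 21.1 CPM in OIR-Norm, mostly from Lyve1. The monocyte chemokine receptor Ccr2 had 31 reads in all libraries together and Ly6c2 had 2. Of the 8 tested, 5 were lower and 3 higher with a median log2 fold change of -0.49, and 0 passed by edgeR, DESeq2, limma with a trend or limma-voom. At an unadjusted p below 0.05, 4 were lower, against 7.10% of all genes tested. Mrc1, the mannose receptor of border macrophages, had 1.46 ± 0.830 and 3.09 ± 0.550 CPM, with an adjusted p of 0.248 by edgeR. The 3 higher were Plac8, with 20 reads in all, and Cd163 and Pf4, with log2 fold changes of 0.49 and 0.23. Red cell genes, a measure of blood in the sample, summed to 56.2 to 75.2 CPM in OIR-CIH and 52.1 to 115 CPM in OIR-Norm and overlapped. The part of these cells in the values of the 9 genes was not tested.

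Among the other Fc receptors, Fcrls fell. This Fc receptor-like gene is a marker of mouse microglia and had 6.59, 5.72 and 6.17 CPM in OIR-CIH and 10.5, 9.16 and 10.2 CPM in OIR-Norm. The log2 fold change was -0.69 (SE 0.12), with an adjusted p of 0.0293 by edgeR's quasi-likelihood test, and the call was lost with limma with a trend and in 5 of the 6 fits without 1 library. Of the 15 other Fc receptor genes, 9 could be tested, 4 of them lower and 5 higher, with a median log2 fold change of 0.07. Fcgr4, the remaining mouse Fc gamma receptor, averaged 0.327 ± 0.152 and 0.233 ± 0.128 CPM. Fcgrt, the neonatal receptor that carries IgG across cells, averaged 9.75 ± 1.09 and 9.30 ± 1.32 CPM. Fcer1a and Fcrl5 were at 0 in all libraries.

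Downstream of the receptors, the signalling genes were mostly lower, and 0 of 22 passed by edgeR, DESeq2, limma with a trend or limma-voom. By direction, 21 were lower and 1 was higher, 7 were lower at an unadjusted p below 0.05, and the median log2 fold change was -0.47. Of all genes tested, 50.9% were lower and 7.10% were lower at that unadjusted p. The 1 higher was the adaptor gene Hcst, with 0.509 ± 0.0743 CPM in OIR-CIH and 0.465 ± 0.114 CPM in OIR-Norm and overlap. Tyrobp, another adaptor with a tyrosine motif in myeloid cells, had 3.96 ± 0.614 CPM in OIR-CIH and 5.86 ± 0.547 CPM in OIR-Norm, without overlap and with an adjusted p of 0.211. The Src kinase gene Fgr had 0.484 ± 0.119 and 1.07 ± 0.229 CPM (adjusted p of 0.227), and Syk had 1.32 ± 0.270 and 2.12 ± 0.268 CPM (adjusted p of 0.282). Ptpn6, the phosphatase SHP-1 that acts behind inhibitory receptors, had 1.62 ± 0.0309 and 2.59 ± 0.238 CPM, with an adjusted p of 0.223. These adjusted p-values are from edgeR's quasi-likelihood test. Of the 22 genes, 3 are also in the microglia, pan-leukocyte or phagocyte lists.

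The relatives of Cd84 had few reads, and none passed in the edgeR fit. Of the 11 genes of the SLAM family and its adaptors, 9 could be tested and all 9 had negative fold changes, with a median of -0.76. None passed by limma with a trend or limma-voom either, 4 had an unadjusted p below 0.05 (7.10% of all genes were lower at that p), and DESeq2 called 1, Sh2d1a (0.504% of all genes were called lower by DESeq2). This gene encodes the adaptor SAP, which binds the tails of SLAM receptors, and it was the most abundant of them, with 3.28 ± 0.554 CPM in OIR-CIH and 5.40 ± 0.785 CPM in OIR-Norm and an adjusted p of 0.151 by edgeR. Slamf9 had 0.454 ± 0.122 and 0.955 ± 0.0233 CPM. Of the others, Ly9 had 63 reads in all and Cd244a had 17, so their fold changes are poorly determined.

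The genes related to Cd53, Laptm5 and Ptprc by family went in both directions. Of 13 tetraspanin and LAPTM genes, 4 were lower and 9 higher with a median log2 fold change of 0.05, and 0 passed by edgeR, DESeq2, limma with a trend or limma-voom. At an unadjusted p below 0.05, 1 was lower, against 7.10% of all genes tested. That 1 was Cd37, a tetraspanin of leukocytes, with 1.24 ± 0.355 and 1.85 ± 0.298 CPM. Of 12 partners of CD45 and other receptor phosphatases, 11 could be tested, 3 were lower and 8 higher with a median of 0.05. By the same 4 tools 0 passed, and 1 was lower at an unadjusted p below 0.05, against the same 7.10%. That 1 was Lgals3, which encodes galectin-3, with 4.95 ± 1.06 and 6.69 ± 1.11 CPM. Many genes of both lists are expressed by retinal neurons and glia, and their sums of 949 to 1073 and 904 to 1106 CPM, and 907 to 1032 and 912 to 997 CPM, overlapped between the groups.

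Other genes found on or in leukocytes in general were mostly lower. Of 24, 23 could be tested, 22 lower and 1 higher with a median log2 fold change of -0.38, and 9 were lower at an unadjusted p below 0.05, as were 7.10% of all genes tested. None passed by edgeR or limma-voom, DESeq2 called 2 (Itgb2 and Arhgap30) and limma with a trend called 1 (Arhgap30). DESeq2 called 0.504% and limma with a trend 0.225% of all genes lower. Arhgap30, a GTPase-activating protein gene of blood cells, had 0.900 ± 0.0925 and 1.98 ± 0.0808 CPM with an adjusted p of 0.088 by edgeR. The integrin chain gene Itgb2 had 1.45 ± 0.495 and 3.21 ± 0.296 CPM (adjusted p of 0.105 by edgeR), and its partner Itgax had 0.226 ± 0.0256 and 0.719 ± 0.188 CPM (adjusted p of 0.16). Of its other partners, Itgam, which is also in the microglia list, had 4.21 ± 0.248 and 6.03 ± 0.598 CPM, and Itgal had 0.816 ± 0.385 and 0.828 ± 0.238 CPM with overlap.

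Genes that work beside Mpeg1 and Laptm5 in killing and degradation were mixed. Of 17, 16 could be tested, 12 were lower and 4 higher with a median log2 fold change of -0.28, and 0 passed by edgeR, limma with a trend or limma-voom, while 4 lower and 1 higher had an unadjusted p below 0.05, as had 7.10% and 6.30% of all genes tested. DESeq2 called 1, Lyz2, the lysozyme of macrophages, where it called 0.504% of all genes lower. Lyz2 had 7.32 ± 0.561 CPM in OIR-CIH and 13.4 ± 3.38 CPM in OIR-Norm and an adjusted p of 0.0518 by edgeR. Cd68, a lysosomal membrane protein of phagocytes, had 2.89 ± 0.419 and 4.76 ± 0.942 CPM with an adjusted p of 0.185.

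**Figure D4:**
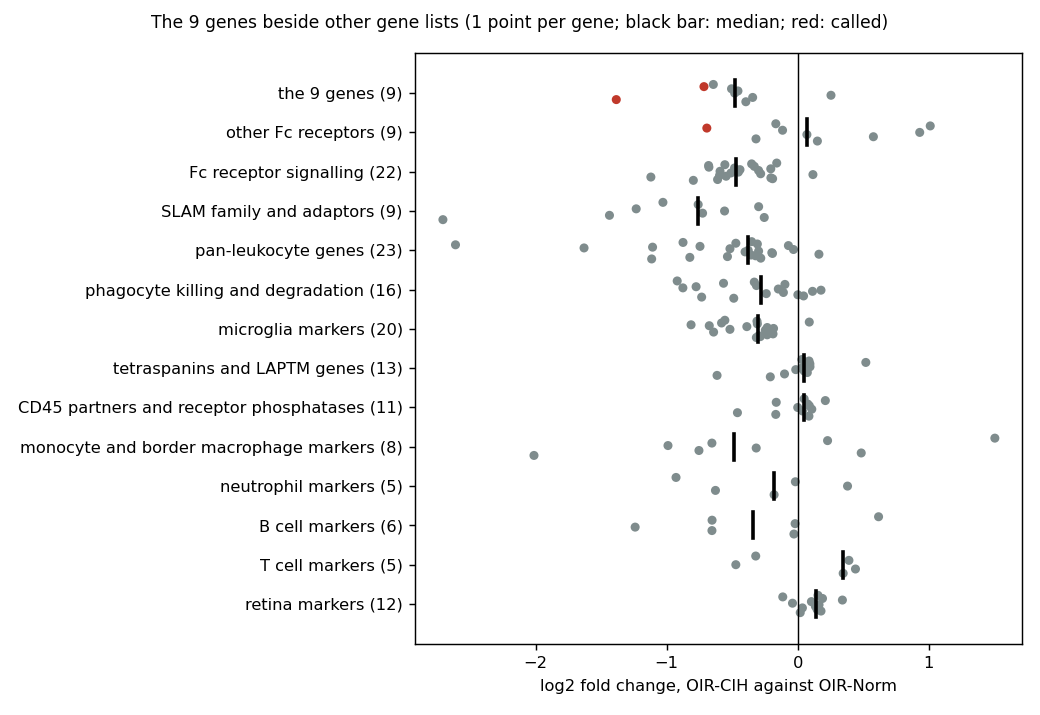
Log2 fold change, OIR-CIH over OIR-Norm (horizontal axis), of every tested gene of the 9 and of the other lists, 1 point a gene, with a black bar for each median and red for genes past both thresholds. The medians of the 9 genes (-0.48), Fc receptor signalling (-0.47) and the SLAM family (-0.76) lie left of 0. Those of the monocyte, pan-leukocyte, B cell, microglia, phagocyte and neutrophil lists also lie left of 0. Those of other Fc receptors (0.07), tetraspanins and CD45 partners (0.05 each) lie near it, and those of T cell and retina markers lie right of it.

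The genes whose levels ran most like those of the 9 were sought among 14791 others with a mean of at least 1 CPM, by Pearson's r of log2(CPM + 0.5) over the 6 libraries with the mean standardised profile of the 9. The 5 closest were Baz2a (r = 0.995), Siglech (0.994), Arid5a (0.994), Zbtb10 (0.993) and Rnf43 (0.992). Of these, Siglech is a lectin of microglia. The 6 points include the difference between groups, 92 genes had r above 0.95, and the values are a description. Of the 9 themselves, Mpeg1 was closest to their mean profile (r = 0.966) and Fcgr1 farthest from it (r = -0.244). That mean includes the gene itself, so these r values are not comparable with those of the genes outside the 9.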

How the data were processed

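Retinal RNA libraries (TruSeq Stranded mRNA, 250 ng input) of the OIR-CIH and OIR-Norm groups were compared, 3 against 3. The authors deposited raw read counts per gene, whole numbers with no normalization, and the submitters' processing notes name STAR 2.7.9a and GRCm38. The paper's methods name an Ensembl release for the alignment and do not name GRCm38. Which build lies behind the counts was not settled, and lengths and positions given here use GRCm38. The counting column used for strand is not given in the sources used here. A second deposited file only names samples and was not used. Total counts per library were 26289905 to 38010151. Of 32285 gene identifiers, 32158 were matched to symbols.

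The deposited counts were tested with edgeR 4.0.16 (quasi-likelihood, TMM) under R 4.3.3 over the 20021 genes whose counts summed to 10 or more, without covariates, and called at a Benjamini-Hochberg adjusted p below 0.05 and an absolute log2 fold change above 0.5. The script was tested on simulated counts. DESeq2 1.42.0, limma 3.58.1 (trend on log2(CPM + 0.5), and voom), other scalings and filters, a replicate block and leaving out each library were alternatives. Replicate numbers did not pair the libraries (residual correlations of 0.162, 0.143 and -0.238). Named genes were the 9 genes, every called gene and up to 4 with the lowest p of each list, markers at 0 or most abundant, and the 5 closest profiles. Tmem119, Fcgr4, Fcgrt, Ccr2, Ly6c2, Itgal and other markers beyond this rule were added after their values were seen. The 9 genes and all lists were chosen with earlier results of these data known, and Cd84, Mpeg1, Fcrls, Sh2d1a, Arhgap30, Itgb2, Lyz2 and Cx3cr1 are in the study's own table of changed genes from these libraries. Lengths and coordinates are from GENCODE M21 and promoters from RefSeq.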

Additional observations from a re-analysis of the deposited data

How the results depend on the processing

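All 9 genes kept their direction under every alternative run. DESeq2 called 135 genes (101 lower, 34 higher) against 63 (42 lower, 21 higher) by edgeR, and leaving out 1 library gave 29 to 97 (22 to 81 lower, 7 to 31 higher). The lowest number came without OIR-CIH replicate 1 and the highest without OIR-Norm replicate 3. Of the 9 genes, 1 was called with the replicate block, where Cd84 was lost at a log2 fold change of -1.39, and 0 to 2 without 1 library. The replicate block called 68 genes in all. For the other Fc receptors, limma with a trend and the replicate block called 0, and 0 to 1 were called without 1 library. DESeq2 called 1 gene each in the SLAM family, phagocyte and microglia lists and 2 pan-leukocyte genes, of which limma with a trend called 1, and keeping every gene with a count of 1 or more called 1 phagocyte gene. Without 1 library, 0 to 1 were called in the phagocyte, microglia and monocyte lists and 0 to 2 among red cell genes (Hba-a1 and Hbb-bs, without OIR-Norm replicate 3). The block changed no other call among the lists. With the length of all annotated exons, an alternative chosen after seeing the data, 5 of the 9 genes kept their place. The cause of these differences was not tested. At 24 to 81 reads a library for Cd84, and fewer than 100 for Fcgr1, Fcgr2b and Ptprc, counting error limits small differences.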
